A study of Mus musculus with 9 samples.

Results

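The semaphorins, their plexin receptors and the neuropilin co-receptors were followed across 3 groups of mouse brain arrays. The genes were chosen by symbol, as every gene whose name begins with Sema or Plxn together with Nrp1 and Nrp2, and 29 of the 19505 genes on the array were found in this way. They comprised 19 semaphorins, the ligands, and 10 receptors, namely 9 plexins and Nrp2. Nrp1 and Sema4a were not analysed here. Each of the 29 genes had 1 transcript on the array. In all, 3 groups of 6-month-old male mice were compared, with 3 Clariom S Mouse arrays each. The SAMP8 TFQA group consisted of SAMP8 mice, a senescence-accelerated inbred line with early memory loss, that received TFQA (3,4,5-tri-feruloylquinic acid, a synthetic compound) by oral gavage at 1 mg/kg for 37 days. The SAMP8 water group consisted of SAMP8 mice given water, and the SAMR1 water group of SAMR1 mice, the senescence-resistant line used as its control, also given water. The genotype of the treated and untreated SAMP8 samples is written as SAMRP 8 in the labels. The strains are separate inbred lines, so age-related and other strain differences cannot be told apart. The paper describes the tissue as hippocampus, whereas the labels give brain and neural stem cells. No source states that the arrays of a group came from separate mice, so the p-values cover the spread among these arrays alone and this spread may be technical.

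Semaphorins are guidance cues that steer growing axons and, in the mature brain, act on synapses and dendrites. Class 3 semaphorins are secreted and mostly bind a neuropilin, which holds the ligand while a class A plexin carries the signal into the cell. Semaphorins of classes 4 to 7 are membrane-bound and in general bind plexins directly. The activated plexin turns off small GTPases of the Ras family and rearranges the cytoskeleton, which often makes a growth cone turn away.

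Sema3a encodes a secreted repellent cue that acts through neuropilin-1 and class A plexins, and Plxnd1 encodes plexin D1, the receptor of the Sema3e protein. These genes had the largest differences between SAMP8 TFQA and SAMP8 water among the 29 members, and for that reason the 250 bases before the transcript start listed for each are shown (RefSeq, GRCm38.p6). The Sema3a window is chr5:13396534-13396783 on the plus strand, and the Plxnd1 window is chr6:115995006-115995255 on the minus strand. Both windows lie inside the annotated span of their gene, since the listed start is an internal one. Capitals mark a GC box (GGGCGG, either strand), the binding motif of Sp1-type factors.
Sema3a: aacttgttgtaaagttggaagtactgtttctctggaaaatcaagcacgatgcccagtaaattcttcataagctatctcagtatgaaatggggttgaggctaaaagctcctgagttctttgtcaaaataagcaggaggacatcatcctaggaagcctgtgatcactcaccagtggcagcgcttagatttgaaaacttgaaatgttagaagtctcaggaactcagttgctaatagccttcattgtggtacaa
Plxnd1: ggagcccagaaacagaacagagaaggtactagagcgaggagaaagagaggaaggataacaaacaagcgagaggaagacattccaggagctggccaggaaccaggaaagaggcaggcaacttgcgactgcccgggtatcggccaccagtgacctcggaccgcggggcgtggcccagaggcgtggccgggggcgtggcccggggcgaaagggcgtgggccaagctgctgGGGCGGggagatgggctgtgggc
The Sema3a window was 40.8% G and C and held no match to any of the 6 motifs searched on both strands. The Plxnd1 window was 64.8% G and C and held a GC box. Of all 32851 windows of this length, 32.7% held a GC box, with a median of 52.4% G and C. Of the 32 windows that the table gives for 24 of the 29 members, 23 held a GC box and the median was 64.4% G and C. The other motifs were the cAMP response element (TGACGTCA, 1.55% of all windows), its core (TGACG, contained in the full element, 17.8%), the E-box (CACGTG, 6.02%), the TATA box (TATAAA, 12.4%) and the EGR site (GCGTGGGCG, 0.536%). Among the members, the cAMP response element and the TATA box had 0 windows. The core was found only in the window of Sema3d, the E-box in Sema4b and Sema6d, and the EGR site in Plxna2. Motif matches are letters in a window and were not linked to the expression values.

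The values are log2 signals, and a difference of 1 corresponds to a 2-fold signal. Signals of different transcripts depend on their probes and are not compared. Array medians ran between 6.76 and 6.81, and any pair of arrays had a correlation of 0.9876 to 0.9934 over all transcripts. Of the marker lists that check the tissue, the 9 hippocampal neuron markers measured had mean signals of 6.15 to 14.37 and the 8 neural stem cell markers of 4.97 to 11.66. The 7 neuron markers measured had mean signals of 10.79 to 17.98, the 7 oligodendrocyte markers of 8.53 to 17.33 and the 8 choroid plexus markers of 6.32 to 18.83. Transcripts of mature brain cells were thus among those with high signals. Since signals depend on the probes, these values do not settle which of the labelled tissues was used. SAMP8 TFQA replicate 2 stood apart from the other 8 arrays in striatal markers, with a mean deviation of 3.28 from the mean of the 9 arrays against -0.81 to 0.59. Its values are part of the marker ranges below unless stated, and results of single genes that rest on it are given without it. In 9 of 9 hippocampal neuron markers the mean was lower in SAMP8 TFQA than in SAMP8 water. Mean deviations were -0.57 to 0.01 in SAMP8 TFQA (-0.06 and 0.01 without replicate 2) and -0.04 to 0.48 in SAMP8 water. The 7 neocortical markers had mean deviations of 0.06 to 0.56 in SAMP8 TFQA (0.06 and 0.17 without replicate 2) and -0.40 to -0.11 in SAMP8 water. The 9 endothelial and mural markers had 0.08 to 0.35 in SAMP8 TFQA and -0.06 to 0.14 in SAMP8 water. In the strain comparison the 9 meningeal fibroblast markers were all higher in SAMP8 water, with mean deviations of 0.17 to 0.58, against -0.65 to -0.32 in SAMR1 water. The endothelial and mural markers separated too, with 7 of 9 higher, at -0.06 to 0.14 in SAMP8 water and -0.42 to -0.13 in SAMR1 water. The 8 choroid plexus markers each had their highest mean in SAMP8 water, with mean deviations of -0.53 to 0.33 in SAMP8 TFQA, 0.15 to 0.82 in SAMP8 water and -0.94 to 0.29 in SAMR1 water. In the 7 astrocyte markers they were -0.13 to 0.11 in SAMP8 TFQA, 0.05 to 0.26 in SAMP8 water and -0.29 to 0.06 in SAMR1 water. In bulk tissue, fewer cells of a type and less RNA per cell cannot be told apart. The part of these marker shifts in the values below was not tested.

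In SAMP8 TFQA vs. SAMP8 water, the secreted cue Sema3a and the receptor Plxnd1 had higher signals after TFQA on every array. The class A receptor Plxna4 had a lower mean. None of the 29 members reached an adjusted p under 0.05 in limma with Benjamini-Hochberg adjustment over all 22206 transcripts, and the smallest adjusted p among them was 0.561. At an adjusted p under 0.05, 0 of all transcripts were called in this comparison, and 1580 passed the study's threshold, which asks for a fold change over 1.1 and a p under 0.05 before adjustment. Past the study's threshold were 3 of the 29 members, with a background of 7.12% of all transcripts (3.36% higher and 3.76% lower). Of these members 2 were higher and 1 was lower. Since these values were known when the gene family was taken up, this count is a description.

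Sema3a (chromosome 5, 13124822 to 13603485) had log2 signals of 6.99, 7.32 and 6.91 on the SAMP8 TFQA arrays and 5.63, 6.29 and 5.25 on the SAMP8 water arrays. All 3 SAMP8 TFQA arrays lay above all 3 SAMP8 water arrays. The mean was 7.07 ± 0.22 in SAMP8 TFQA and 5.72 ± 0.53 in SAMP8 water (SD, n = 3 each). This was a log2 fold change of 1.35 (standard error 0.26, 95% confidence interval 0.78 to 1.93), a 2.55-fold higher signal. The signal was low, with a mean over the 9 arrays of 6.46, at percentile 46.6 of all transcripts. The SAMP8 water values lay below the array medians of 6.76 to 6.81. Leaving out any 1 of the 9 arrays kept it past the study's threshold, with log2 fold changes of 1.11 to 1.63 and 1.23 without SAMP8 TFQA replicate 2.

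Plxnd1 (chromosome 6, 115954811 to 115995339), which is best known from blood vessels and is also found on neurons, had log2 signals of 7.24, 7.88 and 7.96 in SAMP8 TFQA and 6.54, 6.90 and 6.14 in SAMP8 water. Again the groups did not overlap. The mean was 7.69 ± 0.39 in SAMP8 TFQA and 6.53 ± 0.38 in SAMP8 water (SD, n = 3 each), a log2 fold change of 1.17 (standard error 0.29, 95% confidence interval 0.54 to 1.79) or a 2.24-fold higher signal. Without 1 of the 9 arrays at a time it stayed past the threshold at 0.97 to 1.39, and it was 1.07 without SAMP8 TFQA replicate 2. Of the 9 endothelial and mural markers, 6 had higher means in SAMP8 TFQA than in SAMP8 water and 1 was past the threshold and higher. Of the 7 neocortical markers, 6 were higher and 2 were past the threshold and higher. Of the 9 striatal markers, 9 were higher and 2 were past the threshold and higher. Their mean deviations were -0.53, 3.28 and -0.38 in SAMP8 TFQA and -0.81 to -0.28 in SAMP8 water. Of all transcripts, 50.7% were higher and 3.36% were past the threshold and higher. The part of these lists in the Plxnd1 difference was not tested.

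Plxna4 (chromosome 6, 32144543 to 32588192) encodes a class A plexin that transmits the Sema3a signal together with neuropilin-1. It had log2 signals of 11.15, 11.24 and 11.76 in SAMP8 TFQA and 12.04, 11.59 and 11.99 in SAMP8 water. SAMP8 TFQA replicate 3 lay above SAMP8 water replicate 2, so the groups overlapped. The log2 fold change was -0.49 (standard error 0.19, 95% confidence interval -0.91 to -0.07). It no longer passed the threshold without SAMP8 TFQA replicate 1 or 2, at -0.37 and -0.42, or without SAMP8 water replicate 1 or 3, at -0.41 and -0.43.

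**Figure D1:**
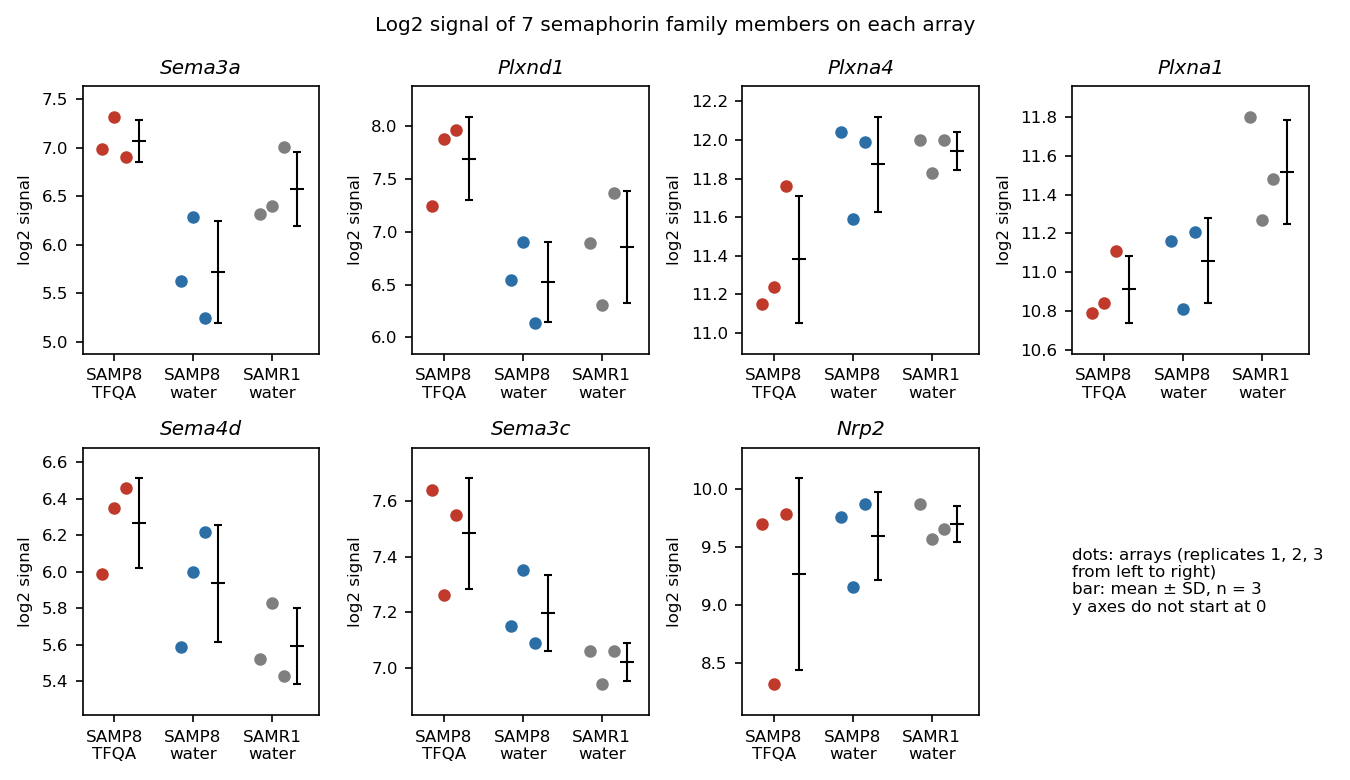
Log2 signal (y axes, not starting at 0) of 7 members on each of the 9 arrays, by group. Dots are arrays, and bars are the mean ± SD of 3 arrays. The Sema3a and Plxnd1 dots of SAMP8 TFQA lie above those of SAMP8 water. Nrp2 is lowest on SAMP8 TFQA replicate 2, at 8.32, and next lowest on SAMP8 water replicate 2, at 9.16.

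The groups did not overlap in 4 of the 29 members, all higher in SAMP8 TFQA, with a background of 11.8% of transcripts not overlapping, 5.89% higher and 5.91% lower. Besides Sema3a and Plxnd1 these were Plxna2 and Sema6b, which encode a receptor and a membrane-bound ligand of the class A plexin system. Plxna2 had 11.41, 11.33 and 11.42 in SAMP8 TFQA against 11.17, 10.74 and 11.14 in SAMP8 water, a log2 fold change of 0.37 (95% confidence interval -0.02 to 0.76). Sema6b had 12.58, 12.33 and 12.39 in SAMP8 TFQA against 12.24, 12.15 and 12.18 in SAMP8 water, a log2 fold change of 0.24 (95% confidence interval -0.10 to 0.59). Neither passed the study's threshold. With all 9 arrays, Sema5a, a transmembrane ligand with thrombospondin repeats, had the most negative difference of the family, at -0.51 (95% confidence interval -1.08 to 0.05). Its groups overlapped. In SAMP8 TFQA it was lowest on replicate 2, at 10.26, beside 10.42 and 10.89. Without that array other members, among them Plxna4, were more negative.

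In SAMP8 water vs. SAMR1 water, Sema3a and Plxna1 had lower signals in SAMP8 water. These were 2 of the 29 members past the study's threshold, with a background of 6.09% (3.4% higher and 2.7% lower), and both were lower. The limma fit called 113 of all transcripts (0.509%) at an adjusted p under 0.05, and 0 members. Sema3a had 5.63, 6.29 and 5.25 in SAMP8 water and 6.32, 6.40 and 7.01 in SAMR1 water. The groups did not overlap, but SAMP8 water replicate 2 and SAMR1 water replicate 1 lay close to each other. The log2 fold change was -0.85 (standard error 0.26, adjusted p = 0.421), and it stayed past the threshold without any 1 of the 9 arrays, at -1.14 to -0.62. The same SAMP8 water arrays enter both values of Sema3a, so a low value on them moves both.

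Plxna1 (chromosome 6, 89316313 to 89362613) encodes a class A plexin with several semaphorin partners. Its log2 signals were 11.16, 10.81 and 11.21 in SAMP8 water and 11.80, 11.27 and 11.48 in SAMR1 water, with every SAMP8 water array below every SAMR1 water array. The log2 fold change was -0.46 (95% confidence interval -0.86 to -0.05, adjusted p = 0.717). It missed the threshold without SAMR1 water replicate 1 at -0.32, without SAMR1 water replicate 3 at -0.48 and without SAMP8 water replicate 2 at -0.33. After TFQA, Plxna1 was at 10.79, 10.84 and 11.11, which overlaps SAMP8 water and gave a log2 fold change of -0.15 (95% confidence interval -0.55 to 0.26). Non-overlapping groups were found for 3 members, namely Sema3a and Plxna1, both lower, and Sema3c, higher, with a background of 11.8% (5.77% higher and 6.04% lower).

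**Figure D2:**
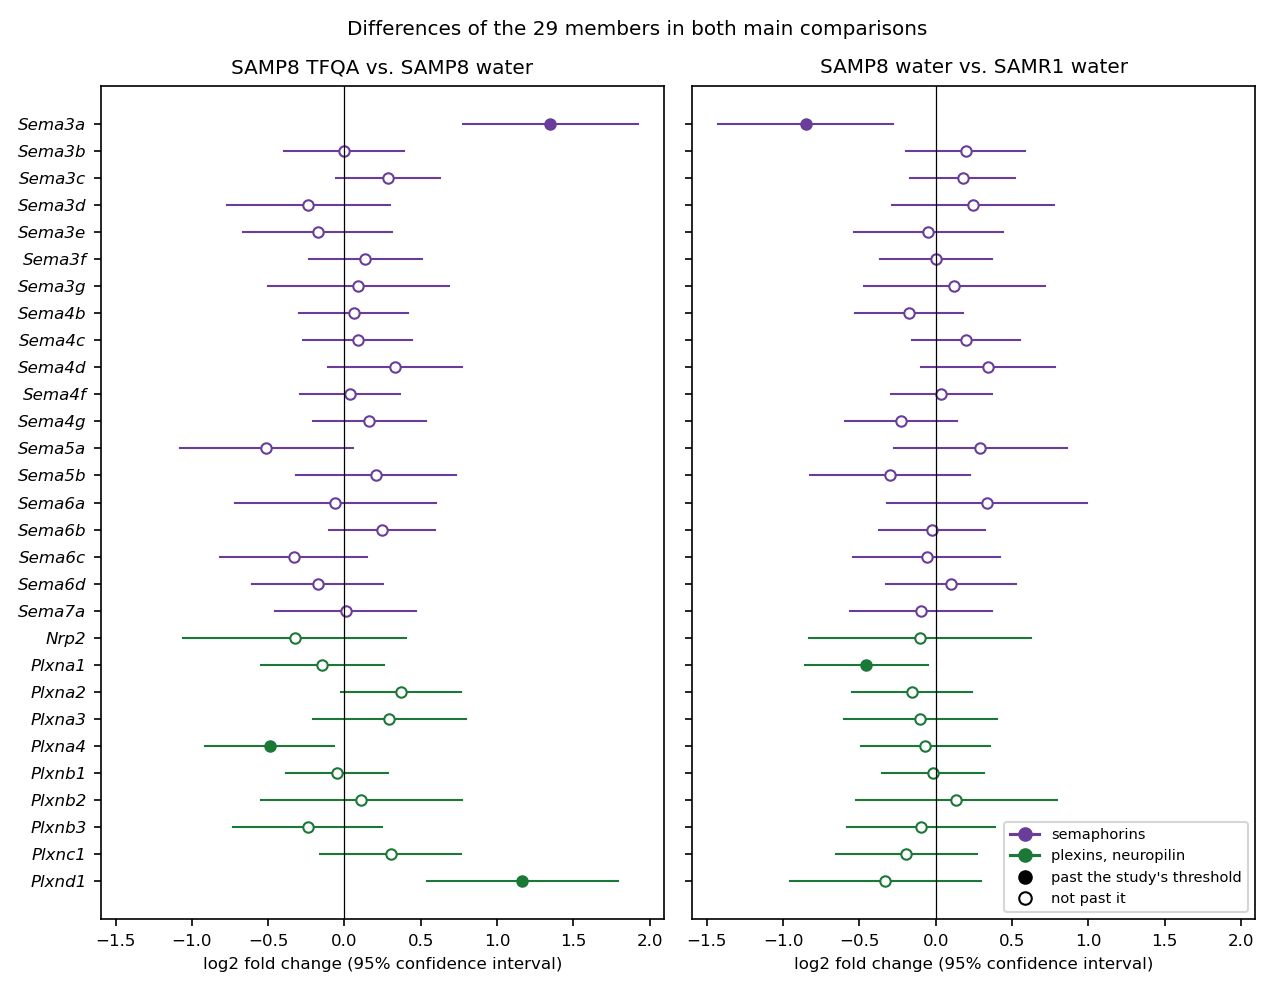
Log2 fold change (x axes) of the 29 members in SAMP8 TFQA vs. SAMP8 water (left) and SAMP8 water vs. SAMR1 water (right). Points are estimates of the limma fit and lines their 95% confidence intervals; filled points passed the study's threshold, 3 on the left and 2 on the right, and both panels share the SAMP8 water arrays.

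SAMP8 TFQA was also set against SAMR1 water, which compares treated mice of one line with untreated mice of the other. Here 5 of 29 members were past the study's threshold, with a background of 8.06% (4.07% higher and 3.99% lower), and 0 at an adjusted p under 0.05, where limma called 128 of all transcripts (0.576%). Sema4d and Sema3c were higher, Plxna1 and Plxna4 lower, each with groups that did not overlap, and Plxnd1 was higher with overlapping groups. For non-overlapping groups the background was 12.3% (5.97% higher and 6.32% lower). Of the 29 members 16 had a log2 fold change above 0, against 48.1% of all transcripts.

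Sema4d (chromosome 13, 51685529 to 51793678) encodes a ligand of the class B plexins that is made by immune cells and oligodendrocytes. It had log2 signals of 5.99, 6.35 and 6.46 in SAMP8 TFQA and 5.52, 5.83 and 5.43 in SAMR1 water. These are low signals, and the mean over the 9 arrays was at percentile 40.5 of all transcripts. The log2 fold change was 0.67 (standard error 0.20, adjusted p = 0.333), and 0.63 without SAMP8 TFQA replicate 2. SAMP8 water lay between these groups, at 5.59, 6.00 and 6.22, and overlapped both.

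Sema3c (chromosome 5, 17574816 to 17730268), a secreted cue that can bind both neuropilins, had 7.64, 7.26 and 7.55 in SAMP8 TFQA and 7.06, 6.94 and 7.06 in SAMR1 water. The log2 fold change was 0.46 (standard error 0.16, adjusted p = 0.452), and 0.58 without SAMP8 TFQA replicate 2. The SAMP8 water arrays were at 7.15, 7.35 and 7.09. Between SAMP8 TFQA and SAMP8 water the difference was 0.29 and did not pass the threshold, whereas without SAMP8 TFQA replicate 2 it was 0.40 and did.

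The class A plexins Plxna1 and Plxna4 were both below SAMR1 water after TFQA. Plxna1 had a log2 fold change of -0.60 (adjusted p = 0.352) and Plxna4, which lay between 11.83 and 12 in SAMR1 water, of -0.56 (adjusted p = 0.469). For Plxna4 the call was lost without SAMP8 TFQA replicate 1, at -0.44. Plxnd1 was at 6.89, 6.31 and 7.37 in SAMR1 water, and its difference of 0.84 (adjusted p = 0.462) missed the threshold without SAMR1 water replicate 2, at 0.56, and without SAMP8 TFQA replicate 3, at 0.70. The endothelial and mural markers differed between the same groups, with 8 of 9 higher in SAMP8 TFQA and 3 of them past the threshold. Their mean deviations were 0.08 to 0.35 in SAMP8 TFQA and -0.42 to -0.13 in SAMR1 water. Of the 7 neocortical markers 5 were higher and 1 past the threshold, and of the 9 striatal markers 9 and 0. Of all transcripts, 48.1% were higher and 4.07% were past the threshold and higher. The part of these lists in the Plxnd1 difference was not tested. Sema3a was 0.50 higher in SAMP8 TFQA than in SAMR1 water and did not pass the threshold. It passed without SAMR1 water replicate 3, at 0.71, and without SAMP8 water replicate 2, at 0.50, and it also passed at 0.50 when only these groups were fitted.

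Nrp2 (chromosome 1, 62703317 to 62818692) encodes the neuropilin that binds the Sema3f protein. Its log2 signals were 9.70, 8.32 and 9.79 in SAMP8 TFQA, 9.76, 9.16 and 9.87 in SAMP8 water and 9.87, 9.57 and 9.66 in SAMR1 water. The lowest array was SAMP8 TFQA replicate 2, which is the array with the high striatal markers, and the next lowest was SAMP8 water replicate 2. The difference between SAMP8 TFQA and SAMP8 water was -0.33 with SAMP8 TFQA replicate 2 and 0.15 without it. That between SAMP8 TFQA and SAMR1 water was -0.43 with this array and 0.05 without it. Between SAMP8 water and SAMR1 water it was -0.10, and 0.12 without SAMP8 water replicate 2. Nrp2 passed the threshold in none of the 3 comparisons.

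The other class 3 semaphorins did not share the Sema3a pattern. Sema3a, Sema3c, Sema3d and Sema3e lie on chromosome 5 and had log2 fold changes of 1.35, 0.29, -0.24 and -0.18 in SAMP8 TFQA vs. SAMP8 water. Sema3b, Sema3f and Sema3g were at 0.00, 0.14 and 0.09. Sema3d, whose protein guides axons and neural crest cells, was high on SAMP8 water replicate 2, at 7.80, and between 6.73 and 7.09 on the other 8 arrays. Sema3e, the ligand of plexin D1, was at 11.36 ± 0.13 in SAMP8 TFQA, 11.53 ± 0.23 in SAMP8 water and 11.58 ± 0.47 in SAMR1 water (SD, n = 3 each), so the receptor Plxnd1 and its ligand differed in opposite directions after TFQA, and the Sema3e difference lay within the spread.

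All 5 measured class 4 semaphorins had positive log2 fold changes in SAMP8 TFQA vs. SAMP8 water, from 0.04 to 0.33, against 50.7% of all transcripts above 0. None passed the threshold. Sema4f, with the smallest of these values, was at 8.68 ± 0.06 in SAMP8 TFQA and 8.65 ± 0.02 in SAMP8 water (SD, n = 3 each). Sema4b, Sema4c and Sema4g were at 0.06, 0.09 and 0.16. In SAMP8 water vs. SAMR1 water the class was mixed, with 3 members higher and 2 lower, from -0.23 for Sema4g to 0.34 for Sema4d. Their partners, the class B plexins, had log2 fold changes of -0.05 for Plxnb1, 0.11 for Plxnb2 and -0.24 for Plxnb3 after TFQA. In SAMP8 TFQA, Plxnb3 was highest on replicate 2, at 7.11, beside 6.49 and 6.58. Against SAMR1 water Plxnb3 was at -0.34 and passed the study's threshold, as lower, only without that array. Plxnb2 varied most between the water arrays, with 8.37, 7.35 and 7.14 in SAMP8 water and 8.04, 7.19 and 7.23 in SAMR1 water, while the SAMP8 TFQA arrays lay at 7.71, 7.76 and 7.72.

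Of the transmembrane semaphorins of classes 5 and 6, 0 passed the threshold in any of the 3 comparisons. Sema5b, the close relative of Sema5a, had log2 fold changes of 0.21 in SAMP8 TFQA vs. SAMP8 water and -0.30 in SAMP8 water vs. SAMR1 water, opposite in sign to those of Sema5a at -0.51 and 0.29. Sema6a, Sema6c and Sema6d, ligands of class A plexins, were at -0.06, -0.33 and -0.18 after TFQA. Sema6a was high on SAMP8 water replicate 2, at 9.53, and between 8.14 and 9.06 elsewhere. Sema7a, which is anchored to the membrane by a lipid and binds plexin C1 and integrins, was at 0.01 after TFQA and -0.10 between the water groups. In SAMP8 TFQA it was highest on replicate 2, at 11.34, beside 10.51 and 11.07, and without that array its value was negative. Its receptor Plxnc1 was at 0.30 after TFQA and -0.19 between the water groups. Plxna3, which acts with Nrp2 in the Sema3f receptor, was at 0.29 and -0.10.

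**Figure D3:**
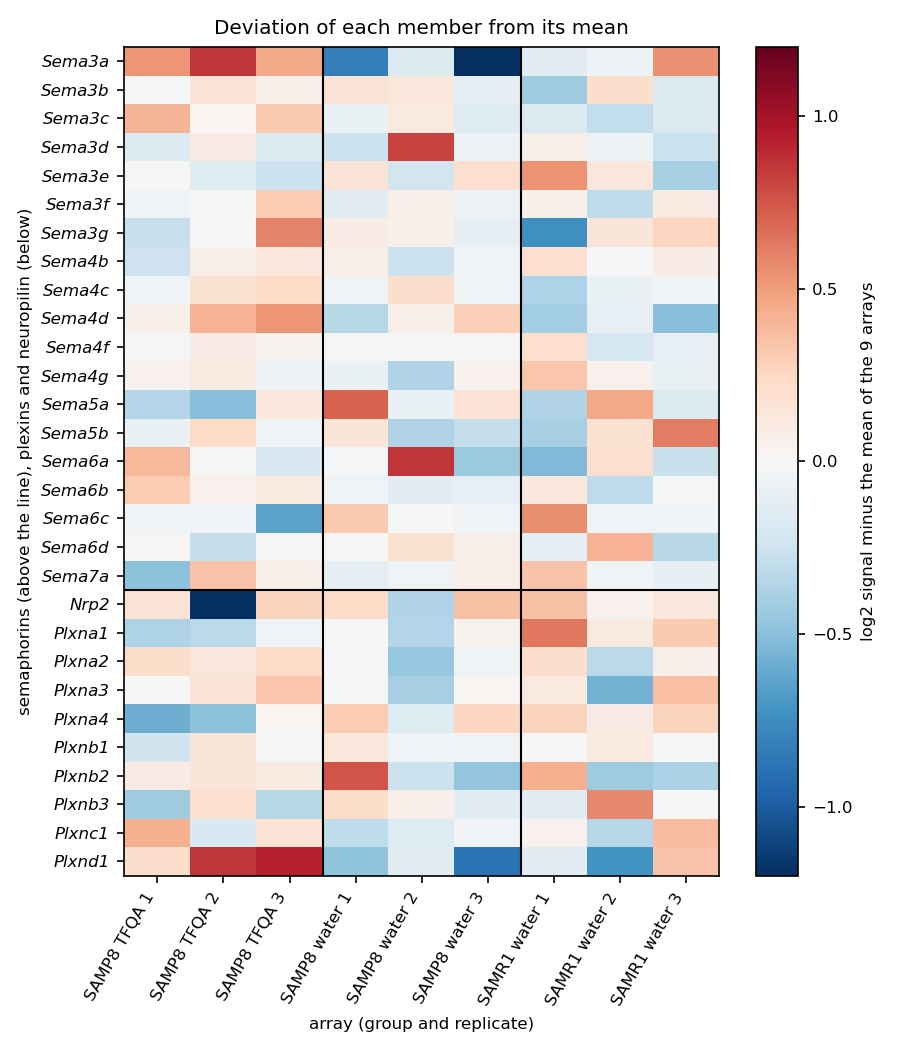
Log2 signal of each member minus its mean over the 9 arrays (colour), with arrays as columns, semaphorins above and receptors below the line. Sema3a and Plxnd1 are above their mean on the 3 SAMP8 TFQA arrays and below it on the 3 SAMP8 water arrays; single high or low arrays stand out in Sema3d, Sema6a and Nrp2.

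Ligands and receptors were compared as groups. In SAMP8 TFQA vs. SAMP8 water, the median log2 fold change was 0.06 over the 19 semaphorins and 0.03 over the 10 receptors, beside 0.01 over all transcripts. In SAMP8 water vs. SAMR1 water, 9 of 10 receptors were lower and 1, Plxnb2, was higher, with a median of -0.10, while 10 of 19 semaphorins were higher and 8 lower, with a median of 0.04 and Sema3f at 0.00. The median of all transcripts was -0.01, and 47% of them were higher. The ligand median minus the receptor median was 0.03 in the TFQA comparison and 0.14 in the strain comparison. Leaving out 1 array at a time gave -0.11 to 0.14 for the TFQA comparison and 0.00 to 0.23 for the strain comparison. Without SAMP8 TFQA replicate 2 the medians after TFQA were 0.02 over the semaphorins and 0.12 over the receptors, so the sign of their difference turned. On single arrays, the median deviation of the receptors was 0.05, 0.14 and 0.14 in SAMP8 TFQA, 0.06, -0.21 and -0.04 in SAMP8 water and 0.16, -0.14 and 0.20 in SAMR1 water. That of the semaphorins was -0.02, 0.07 and 0.07 in SAMP8 TFQA, -0.02, -0.01 and -0.05 in SAMP8 water and -0.10, -0.04 and -0.10 in SAMR1 water. The groups overlapped in the receptors in both main comparisons, and the ligands of SAMP8 TFQA and SAMP8 water overlapped in 1 array. Taken on single arrays, the ligand median minus the receptor median averaged -0.07 in SAMP8 TFQA (-0.07 on each array), 0.04 in SAMP8 water (-0.08 to 0.20) and -0.16 in SAMR1 water (-0.30 to 0.10). SAMP8 TFQA minus SAMP8 water was -0.11 by this measure, opposite in sign to the difference of median fold changes, and SAMP8 water minus SAMR1 water was 0.19. The arrays of the groups overlapped in both, so no ordering of ligands and receptors is read from these values.

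**Figure D4:**
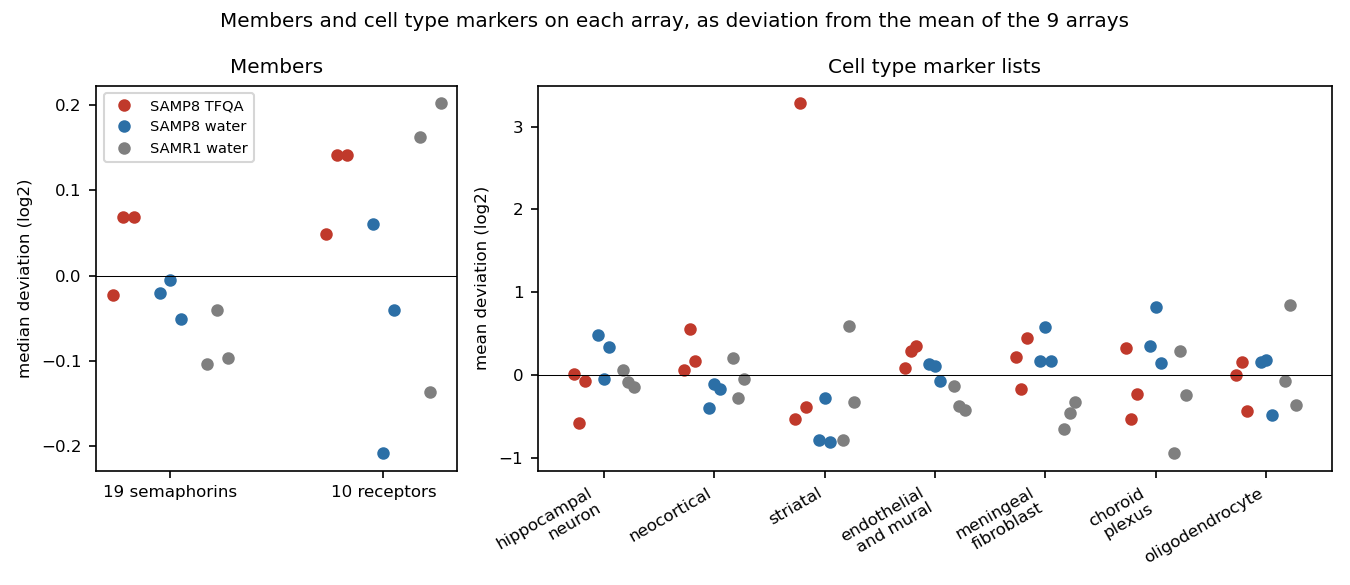
Left, median deviation from the 9-array mean (log2) over the 19 semaphorins and 10 receptors on each array. Right, mean deviation of 7 cell type marker lists on each array; SAMP8 TFQA replicate 2 is at 3.28 in the striatal list, and the SAMR1 water arrays are below the others in the meningeal list.

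Semaphorin receptors work with partner proteins at the membrane and with effectors inside the cell. Of 16 listed co-receptors and adhesion partners 15 were measured. In SAMP8 TFQA vs. SAMP8 water, 2 of them were past the study's threshold, both higher, where 3.36% of all transcripts were past it and higher. In SAMP8 water vs. SAMR1 water 1 was, lower, where 2.7% of all transcripts were. Met, the hepatocyte growth factor receptor, which can associate with class B plexins, was at 6.91 ± 0.13 in SAMP8 TFQA and 6.39 ± 0.04 in SAMP8 water (SD, n = 3 each), with a log2 fold change of 0.53. Between SAMP8 water and SAMR1 water it was -0.37. Tyrobp, an adaptor of microglia used by a plexin A1 complex, had a log2 fold change of 0.50 after TFQA. Without SAMP8 TFQA replicate 2 these values after TFQA were 0.47 for Met and 0.49 for Tyrobp, and both stayed past the threshold. The median over the list was 0.08 in the TFQA comparison and -0.03 in the strain comparison.

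Of 29 listed intracellular effectors 26 were measured. After TFQA 3 were past the threshold, all higher, and in the strain comparison 2, both lower, beside the same shares of all transcripts of 3.36% and 2.7%. Rnd1, a small GTPase that binds the inner part of plexins, was at 8.93 ± 0.17 in SAMP8 TFQA, 8.10 ± 0.48 in SAMP8 water and 8.83 ± 0.38 in SAMR1 water (SD, n = 3 each). Its log2 fold change was 0.83 in SAMP8 TFQA vs. SAMP8 water and -0.73 in SAMP8 water vs. SAMR1 water. Mical3, of the Mical family of actin-modifying oxidases, had 0.50 and -0.15, and Farp1, a guanine nucleotide exchange factor that acts on Rac at synapses, 0.45 and 0.05. Sh3bp1, a GTPase-activating protein, had 0.02 and -0.52. None had an adjusted p under 0.05 in limma. Without SAMP8 TFQA replicate 2, Rnd1 stayed past the threshold at 0.81 and Mical3 at 0.48, and Farp1 had 0.46, about as with all 9 arrays, but no longer passed. The median over the 26 effectors was 0.03 in the TFQA comparison and -0.07 in the strain comparison.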

How the data were processed

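Per the paper, hippocampal RNA was labelled and hybridized to Clariom S Mouse arrays, which were normalized with SST-RMA (Transcriptome Analysis Console software). The labels name RMA and mm10. The deposited values are log2 signals, 1 per transcript and array, for 22206 transcripts, of which 19572 carry 1 gene symbol and 2634 none. No detection filter was applied. A linear model with a mean for each of the 3 groups was fitted to the 9 arrays together (limma 3.58.1, R 4.3.3; eBayes), with Benjamini-Hochberg adjustment across every transcript. The method was tested on data drawn for SAMP8 TFQA vs. SAMP8 water over 22206 transcripts, with independent normal noise. Of 100 transcripts with a log2 difference of 1, 95 passed the study's threshold and 50 an adjusted p under 0.05. Of another 100 with a difference of 2, these were 100 and 95. A difference of 1 can thus be missed at the adjusted p. Recovery at the adjusted p depends on how many transcripts change, so it may be lower in the real data. The members, lists and named genes were chosen with earlier results of these data known. Members past the study's threshold in any comparison and Nrp2 are given array by array, and of the other lists up to 3 genes with the smallest p. Farp1, Slit3 and Efna2 were named after their values were seen. Positions and sequences are of GRCm38.p6. With 3 arrays a group, precision was limited, and over all transcripts the standard error of the TFQA difference had a median of 0.19. Alternatives were 18 other settings of the fit, the normalization, the filter and the arrays used.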

Additional observations from a re-analysis of the deposited data

How the results depend on the processing

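The 29 members were recomputed under 18 other settings, and 0 of them reached an adjusted p under 0.05 in any comparison in limma or the methods' ANOVA. Sema3a and Plxnd1 stayed past the study's threshold in SAMP8 TFQA vs. SAMP8 water under all 18. With trend and robust settings 5 members passed in that comparison, where Plxna2 and Sema5a were added. When 1 array was left out at a time, the members past the threshold ranged from 2 to 5 in SAMP8 TFQA vs. SAMP8 water (5 without SAMR1 water replicate 2), from 1 to 3 in SAMP8 water vs. SAMR1 water (1, Sema3a, without SAMR1 water replicate 3 or SAMP8 water replicate 2) and from 4 to 7 in SAMP8 TFQA vs. SAMR1 water. Of the 7 members given array by array, signs turned only in Nrp2 and Plxna4: without SAMP8 TFQA replicate 2, Nrp2 was at 0.15 against SAMP8 water and 0.045 against SAMR1 water, and without SAMP8 water replicate 2, Nrp2 was at 0.12 and Plxna4 at 0.072 in the strain comparison. Leaving out 1 array at a time gave ranges of -0.59 to 0.15, -0.69 to 0.045 and -0.24 to 0.12 for these Nrp2 values and of -0.15 to 0.072 for Plxna4. Plxnd1 in SAMP8 TFQA vs. SAMR1 water also missed the threshold in the methods' ANOVA. The causes were not tested. Arrays with the same replicate number had correlations of deviations of 0.0001 to 0.15, and arrays with other numbers of -0.11 to 0.07. These ranges overlap and do not settle whether the numbers pair the samples. With the number as a replicate block, 4 members passed in SAMP8 TFQA vs. SAMP8 water (Plxna2 was added), 6 in SAMP8 TFQA vs. SAMR1 water (Sema6c was added) and the same 2 in the strain comparison. Centring each array on its median turned the split of all transcripts past the threshold to 916 higher and 698 lower, where 746 and 834 had been found in the TFQA comparison, and to 624 and 757, where 754 and 599 had been found in the strain comparison. The members' split did not change. Using the mean of a gene's transcripts left the members' fold changes as they were, since each member has 1. Leaving out the 40% dimmest transcripts removed Sema3g.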

Other observations

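Sema3a and Plxnd1 were singled out for the largest differences of their family between SAMP8 TFQA and SAMP8 water. That other axon guidance families showed smaller ones therefore does not set the families apart. With all 9 arrays, the member next in size was Sema5a, at a log2 fold change of -0.51. This rank rested on SAMP8 TFQA replicate 2. The values furthest from zero were -0.54 in the slits and robos, 0.48 in the ephrins and Eph receptors and 0.27 in the netrins and netrin receptors. In both main comparisons, 0 of 11 measured netrins and netrin receptors, 0 of 7 slits and robos and 0 of 21 ephrins and Eph receptors passed the study's threshold. Of all transcripts, 7.12% passed it in SAMP8 TFQA vs. SAMP8 water and 6.09% between the water groups, so lists this short may hold no call at that share. Ntn1, a secreted netrin, was at 4.67 ± 0.07 in SAMP8 TFQA and 4.40 ± 0.03 in SAMP8 water (SD, n = 3 each), a log2 fold change of 0.27. These signals are low, below the mean of 4.92 of Sema3g, which was among the 40% dimmest transcripts. Dcc, its receptor, had -0.39 in SAMP8 water vs. SAMR1 water, and Ntn4 0.34. The repellent cue Slit1 was at 12.15 ± 0.60 in SAMP8 TFQA and 12.69 ± 0.43 in SAMP8 water, a log2 fold change of -0.54, and of -0.19 without SAMP8 TFQA replicate 2. All 7 slits and robos had lower means in SAMP8 water than in SAMR1 water, where 11644 of all 22206 transcripts were lower. Their log2 fold changes were -0.29 to -0.02, with a median of -0.06, and none passed the threshold. Epha2 had the most negative difference of the Eph family after TFQA, at -0.38.

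In SAMP8 TFQA vs. SAMR1 water, Slit3 had a log2 fold change of -0.74 (adjusted p = 0.486 in limma) and Ntn4 of 0.36 (adjusted p = 0.617), and both passed the study's threshold. Without SAMP8 TFQA replicate 2, Slit3 was at -0.55 and Ntn4 at 0.40, and neither passed. Without that array Efna2 passed it in SAMP8 TFQA vs. SAMP8 water, at -0.64, where with all 9 arrays it was at -0.31.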
